A study of Mus musculus with 27 samples.

Results

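Interferon-stimulated genes were followed through 27 bulk RNA libraries of cells sorted from 12-week-old non-obese diabetic (NOD) mice, a strain that develops autoimmune diabetes. The 37 genes are a list of symbols, of 54446 genes in the tables. They were listed by what is known of them, with earlier results of these data in view. Of these, 27 are of the type I kind and 10 of the interferon gamma kind, by the interferon they are best known to answer, although most can answer both. The TG- animals are NOD/ShiLtJ. The TG+ animals are Ins2-CCL21 NOD, in which an insulin promoter, active in pancreatic beta cells, drives the chemokine CCL21. By their labels, the libraries hold CD45 leukocytes of islet infiltrates (4 TG-, 4 TG+), FRC-like islet cells high in gp38 (2 TG-, 2 TG+) or low in gp38 (4 TG-, 4 TG+), and fibroblastic reticular cells (FRCs) of skin-draining lymph nodes (4 TG-, 3 TG+). gp38 is podoplanin, and FRCs are stromal cells on whose network T cells of the node move. The labels do not say if replicates are different animals, so p-values measure the spread between these libraries, which may be partly technical.

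Interferons are cytokines that cells release on sensing viruses or other danger. Type I interferons signal through IFNAR1 and IFNAR2 to a complex that holds STAT2 and IRF9 and binds the interferon-stimulated response element (ISRE). Interferon gamma, made mainly by T cells and NK cells, signals through IFNGR1 and IFNGR2 and acts on genes with a gamma-activated site (GAS). The target genes include antiviral enzymes, RNA sensors, GTPases that attack intracellular microbes, and chemokines that recruit T cells. Both kinds of interferon have been linked to islet autoimmunity.

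The promoters of 6 members are shown. These are among the genes that carry the differences between library classes described further on, or, for Irf1, have the highest level per exon length. Gbp2 and Ifit3 were highest in libraries high in Msln, Oas3 in those high in Ptprc, Gbp5 and Cxcl10 in those high in Ccl21a, and Irf1 was high in all. The sequences are RefSeq promoters of GRCm38.p6, the assembly that mm10 names. Each runs 5′ to 3′ along the gene from 250 bases before its start site to 50 bases after, and capitals mark every match of an ISRE (GAAANNGAAA) or a GAS (TTCNNNGAA) on either strand.
Gbp2, chr3:142620413-142620712, + strand: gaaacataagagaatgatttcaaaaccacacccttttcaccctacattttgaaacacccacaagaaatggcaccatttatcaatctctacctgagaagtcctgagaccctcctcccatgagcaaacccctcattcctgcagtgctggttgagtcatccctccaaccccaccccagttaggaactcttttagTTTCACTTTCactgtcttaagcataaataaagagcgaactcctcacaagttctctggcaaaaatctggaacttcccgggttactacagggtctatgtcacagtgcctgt
Ifit3, chr19:34583279-34583578, + strand: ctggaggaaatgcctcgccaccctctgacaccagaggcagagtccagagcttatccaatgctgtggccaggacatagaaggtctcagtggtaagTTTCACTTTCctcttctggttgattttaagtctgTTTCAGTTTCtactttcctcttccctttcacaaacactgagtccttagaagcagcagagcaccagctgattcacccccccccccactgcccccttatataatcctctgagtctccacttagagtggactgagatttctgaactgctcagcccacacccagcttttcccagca
Oas3, chr5:120777610-120777909, - strand: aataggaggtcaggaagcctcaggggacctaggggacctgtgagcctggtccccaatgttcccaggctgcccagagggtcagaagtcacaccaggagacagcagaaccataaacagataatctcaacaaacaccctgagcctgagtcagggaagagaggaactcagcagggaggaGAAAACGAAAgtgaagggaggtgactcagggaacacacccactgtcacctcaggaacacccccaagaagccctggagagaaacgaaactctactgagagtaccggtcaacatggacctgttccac
Gbp5, chr3:142496684-142496983, + strand: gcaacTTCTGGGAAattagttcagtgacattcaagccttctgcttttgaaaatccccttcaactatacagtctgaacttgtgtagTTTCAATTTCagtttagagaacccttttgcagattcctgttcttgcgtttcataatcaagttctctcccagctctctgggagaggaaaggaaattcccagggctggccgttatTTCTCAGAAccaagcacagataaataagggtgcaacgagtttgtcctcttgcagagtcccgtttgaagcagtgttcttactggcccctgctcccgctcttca
Cxcl10, chr5:92348840-92349139, - strand: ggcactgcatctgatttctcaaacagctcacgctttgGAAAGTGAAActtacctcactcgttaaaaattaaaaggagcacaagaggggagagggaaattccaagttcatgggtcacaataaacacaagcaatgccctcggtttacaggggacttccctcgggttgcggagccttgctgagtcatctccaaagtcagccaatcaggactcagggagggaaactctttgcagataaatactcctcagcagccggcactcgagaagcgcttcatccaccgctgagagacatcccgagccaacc
Irf1, chr11:53769764-53770063, + strand: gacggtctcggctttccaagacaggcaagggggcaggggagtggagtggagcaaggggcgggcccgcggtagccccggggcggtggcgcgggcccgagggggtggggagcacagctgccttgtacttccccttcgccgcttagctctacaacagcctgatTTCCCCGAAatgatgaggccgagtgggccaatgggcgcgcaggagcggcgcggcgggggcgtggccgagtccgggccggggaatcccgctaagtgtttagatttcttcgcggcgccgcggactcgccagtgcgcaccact
A promoter was found for 28 of the 37 members. An ISRE stood in 17 of the 28, against 3.99% of 27025 genes with a promoter of the same length. By kind, it stood in 10 of 19 type I-type and 7 of 9 interferon gamma-type members. A GAS stood in 8 of the 28, against 9.55% of all genes, namely in 4 of 19 type I-type and 4 of 9 interferon gamma-type members. Either motif stood in 20 of the 28, against 12.9% of all genes. Every promoter shown holds a match, whereas those of Oasl2, Cxcl9 and Irf7, which also differed between classes, hold neither motif. In 1 member promoter a match of each overlapped. The Gbp2 match began 59 bases before the start site, the Oas3 match 75 bases before it and the Irf1 GAS 90 bases before it. The table holds a second start for Irf1, Gbp3, Irf9 and Ifit2, a member counts where either window holds a match, and the second Irf1 window holds neither motif. These are matches of letters in 1 window per start site and no binding was measured.

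Reads in genes numbered 8517844 to 25194443 per library, and a count of 0 allows up to 0.119 to 0.352 reads per 1000000 reads in genes (CPM, the unit used throughout), which covers counting error only. The libraries were placed in 4 classes by marker genes, because these did not follow the labels. Ptprc, which encodes CD45, was above 100 CPM in 8 libraries (169 to 679 CPM) and at most 5.79 CPM in the others. Ccl21a, a chemokine of lymph node FRCs, was above 1000 CPM in 7 libraries (2162 to 5685 CPM) and at most 5.28 CPM elsewhere, in 3 TG+ and 4 TG- libraries, so it did not separate the genotypes. Msln, which encodes mesothelin, was above 100 CPM in 4 libraries (573 to 830 CPM) and at most 2.52 CPM elsewhere. The other 8 libraries, called the rest here, passed none of these thresholds, and none of the 27 passed more than 1. Pdpn, the gene of gp38, was at most 1.01 CPM in the Ptprc-high class and 51.1 to 218 CPM in the other 3.

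Only 1 of the 8 Ptprc-high libraries was labelled CD45. The others were labelled gp38-high (1), gp38-low (1) and lymph node FRC (5). The 7 Ccl21a-high libraries were labelled CD45 (4) and gp38-low (3), and none lymph node FRC. The Msln-high class held 1 library of each label and the rest CD45 (2), gp38-high (2), gp38-low (3) and lymph node FRC (1). By genotype the classes held 3 TG+ and 5 TG- (Ptprc-high), 3 and 4 (Ccl21a-high), 1 and 3 (Msln-high) and 6 and 2 libraries (rest). The class sizes of 8, 7, 4 and 8 equal the numbers of libraries labelled CD45, lymph node FRC, gp38-high and gp38-low. Whether labels and files were exchanged was not tested, and if so the TG+, TG- and population values below would not compare what their labels name. Each library is named by its label, and a comparison between labels mixes classes. In the same order, the summed level of 4 leukocyte markers was 2790 to 3459, 5.36 to 14.4, 0.579 to 4.08 and 0.913 to 4.75 CPM. That of 5 mesothelial markers was 0.46 to 6.29, 4.08 to 26.0, 3632 to 5316 and 97.8 to 186 CPM, and that of 5 FRC markers 2.13 to 153, 3187 to 6941, 169 to 298 and 64.1 to 117 CPM. The non-coding RNA Gm26917 also moved with class, taking 20.8% to 35.99%, 9.78% to 22.2%, 5.31% to 6.82% and 5.39% to 7.93% of the reads in genes, which lowers the CPM of other genes more in some classes than in others. With TMM scaling, which corrects totals for such genes, the median ratio of all genes shifted by 0.22 log2 units for the Ptprc-high class over all others, by -0.13 for the Msln-high class over the rest and by 0.24 for the Ccl21a-high over the Msln-high class. In bulk RNA, fewer expressing cells and less RNA per cell cannot be told apart.

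All 37 members were measured, each with a mean of at least 1 CPM, as had 14965 genes in all. Compared per exon length, as CPM per kilobase of exons (RPKM), the highest medians over the 27 libraries were those of Irf1 (66.0), Gbp2 (36.6), Ifi27 (33.4), Bst2 (32.6) and Igtp (16.3). The lowest were those of Oas3 (0.06), Ifi44 (0.09) and Mx1 (0.30). The Msln-high class had the highest class median of 22 of the 37 members and the lowest of none. The Ptprc-high class had the highest of 8, the Ccl21a-high class of 5 and the rest of 2. The lowest medians were spread over the Ptprc-high class (13 members), the Ccl21a-high class (12) and the rest (12).

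**Figure D1:**
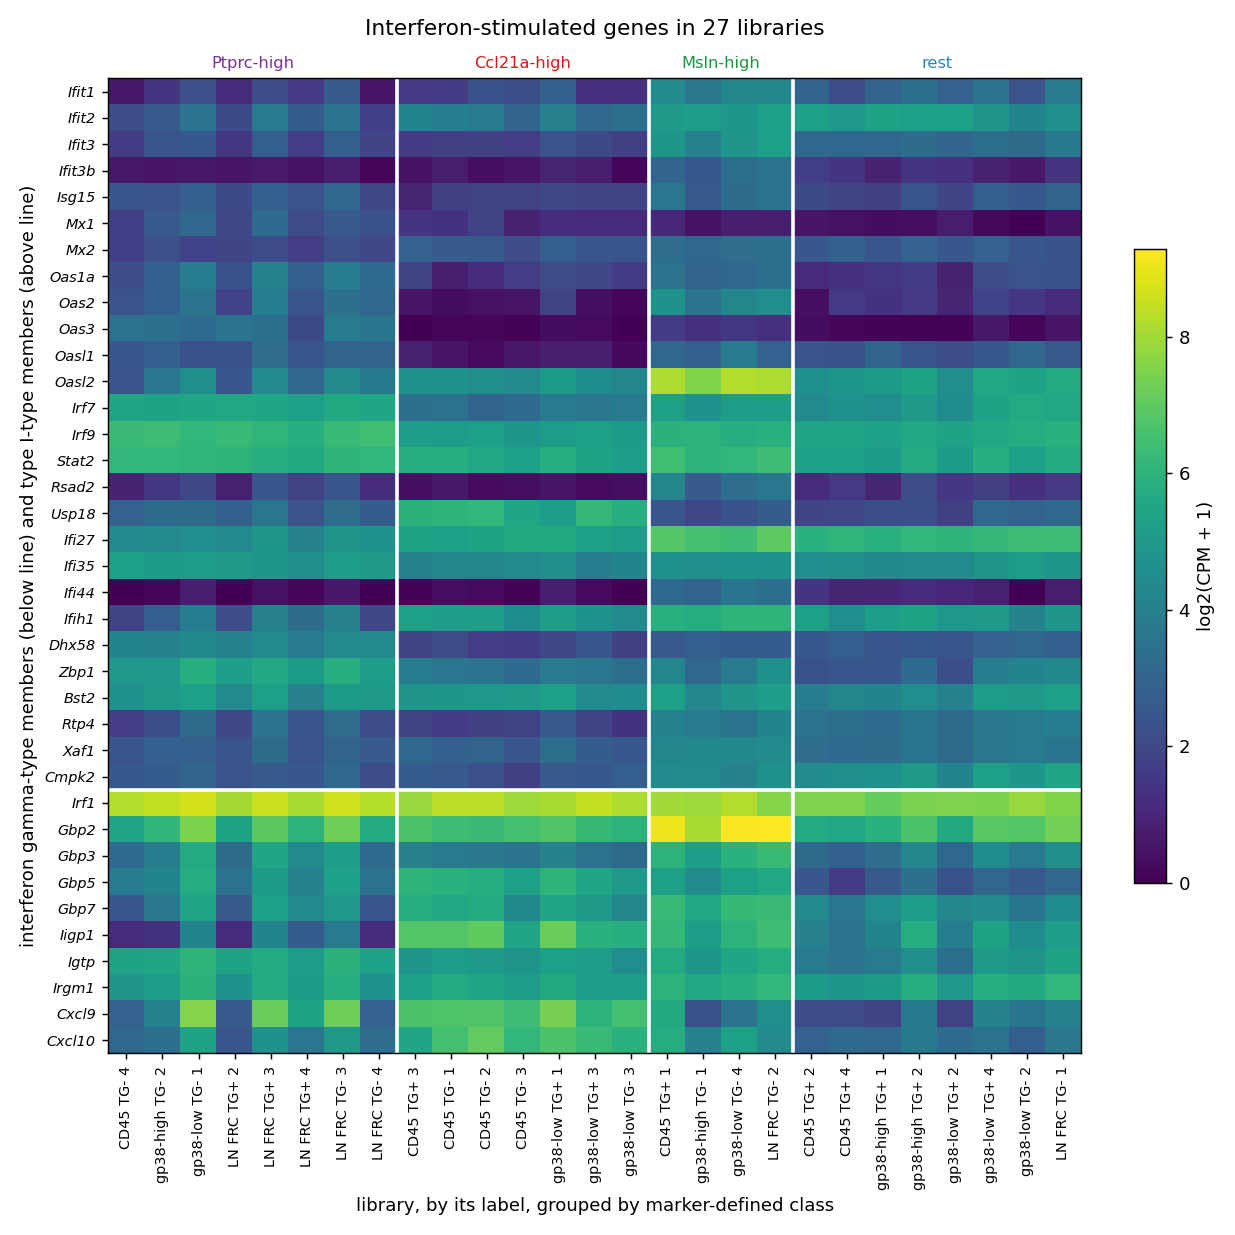
Level of each member (row) in each library (column, by its label and replicate number), as log2(CPM + 1), with libraries grouped by marker-defined class and type I-type members above the horizontal line. Oasl2 and Gbp2 are brightest in the 4 Msln-high libraries and Usp18 in the 7 Ccl21a-high libraries.

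The Msln-high libraries stood above the rest in both kinds of member. Every Msln-high library was above every library of the rest for 18 of 37 members, 13 type I-type and 5 interferon gamma-type, where 19.9% of all genes did so. None of the 37 was below in this way, against 8.4% of genes. With TMM scaling, 12 of the 18 were above, against 13.0% of genes at that scaling. The median log2 ratio of class medians, Msln-high over rest, was 0.86 for type I-type and 1.74 for interferon gamma-type members, against 0.10 for all genes. Against the rest, the Ccl21a-high libraries differed by kind of member. Above without overlap were 6 members (9.77% of genes), of which Irf1, Gbp5, Cxcl9 and Cxcl10 are interferon gamma-type and Mx1 and Usp18 type I-type. Below without overlap were 8 members (16.2% of genes), Ifit3, Oasl1, Irf7, Irf9, Rsad2, Ifi27, Rtp4 and Cmpk2, all type I-type. The median log2 ratio was -0.63 for type I-type and 0.89 for interferon gamma-type members, against -0.12 for all genes.

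Set directly against the Msln-high libraries, the Ccl21a-high libraries were lower without overlap for 25 members (31.2% of genes), among them 23 of the 27 type I-type members with Gbp2 and Gbp3. They were higher for Usp18 and Cxcl9 (10.1% of genes). The Ptprc-high libraries were above all 19 others for Oas3, Dhx58 and Zbp1 (12.4% of genes) and below them for Ifi27 and Ifih1 (20.4% of genes). With Gm26917 left out of the totals, 5 members were above (18.0% of genes), the same 3 with Mx1 and Irf9, and Ifi27 alone was below (17.3% of genes). Raising the Ptprc threshold to 200 CPM moves the library labelled lymph node FRC TG- replicate 4 to the rest. Then no member was above or below without overlap, against 1.92% and 2.41% of genes. The next comparisons, of each other class with all libraries outside it, were added after the values were seen. Msln-high libraries were above all 23 others for 10 members (9.58% of genes), Ifit3, Ifit3b, Mx2, Oasl2, Rsad2, Ifi27, Ifi44, Ifih1, Xaf1 and Gbp2, and below for none (0.461%). With TMM scaling 5 of the 10 were above (5.51% of genes), Ifit3b, Oasl2, Ifi44, Ifih1 and Gbp2. Ccl21a-high libraries were above all 20 others for Usp18 (4.55%) and below for Oasl1, Irf7, Irf9 and Rsad2 (3%). The rest was above all 19 others for no member (3.18%) and below for Gbp5 (1.05%). No test was made between classes, since the classes come from marker genes measured in the same libraries.

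**Figure D2:**
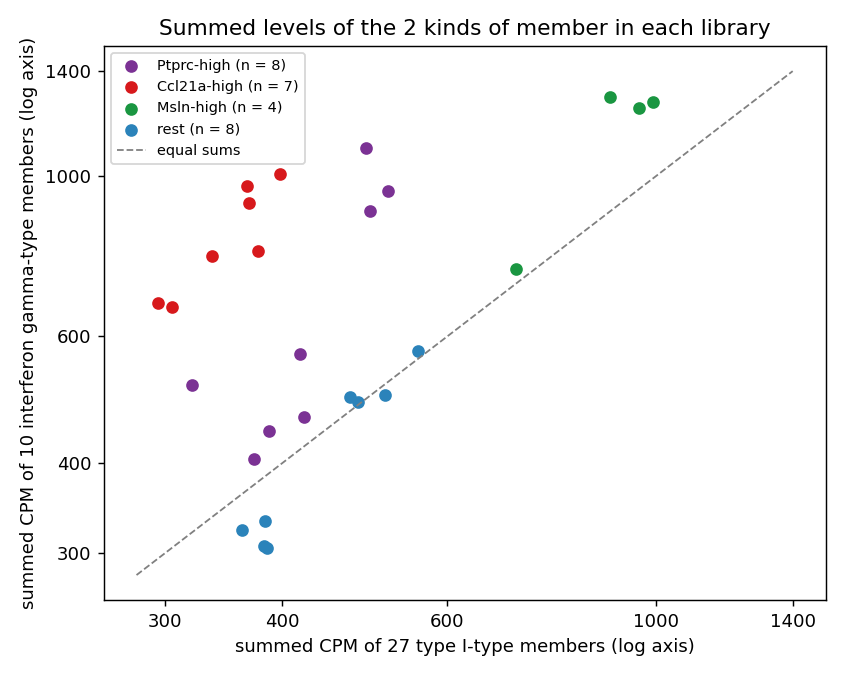
Summed CPM of the 27 type I-type members (horizontal, log axis) and the 10 interferon gamma-type members (vertical, log axis) in each library, coloured by class, with a dashed line where the sums are equal. The Ccl21a-high libraries lie above the line at type I-type sums of 295 to 398 CPM, and the Msln-high libraries lie farthest right.

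The sums of each kind set the classes out in the same way. The 27 type I-type members summed to 709 to 993 CPM in the Msln-high libraries, 321 to 519 in the Ptprc-high, 362 to 559 in the rest and 295 to 398 in the Ccl21a-high libraries. The Msln-high sums lay above all others in CPM, but with TMM scaling they ran from 529 to 831 and overlapped the rest (up to 599.96) and the Ptprc-high libraries (up to 551). The 10 interferon gamma-type members summed to 744 to 1291 CPM in the Msln-high, 660 to 1007 in the Ccl21a-high, 405 to 1094 in the Ptprc-high and 305 to 573 CPM in the rest. The log2 ratio of the type I-type sum over the interferon gamma-type sum was -1.40 to -1.06 in the Ccl21a-high libraries and -0.06 to 0.34 in the rest, which do not overlap. It was -0.53 to -0.07 in the Msln-high and -1.16 to -0.12 in the Ptprc-high libraries. A sum weights each member by its level, so Irf1, at 136 CPM or more in every library, counts for much of the interferon gamma-type sum. In the Msln-high libraries Gbp2, at 270 to 624 CPM, counts for much of that sum as well. Oasl2, at 182 to 300 CPM there, counts for much of the type I-type sum. Whether the classes keep their order in sums without these members was not tested.

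Among the transcription factors and signal carriers, Irf1 was high in every class. IRF1 is a factor that is induced early after interferon gamma. Irf1 (chr11:53770014-53778374) was at 262 to 404 CPM in the Ptprc-high libraries (median 328), 230 to 352 in the Ccl21a-high (median 284) and 136 to 229 in the rest (median 179). In the Msln-high libraries it was at 253 CPM in CD45 TG+ replicate 1, 243 in gp38-high TG- replicate 1, 298 in gp38-low TG- replicate 4 and 193 in lymph node FRC TG- replicate 2. The rest lay just below the Ccl21a-high libraries, but with TMM scaling they overlapped, as did the other neighbouring classes in CPM.

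IRF7 amplifies type I interferon production. Irf7 (chr7:141262706-141266481) was at 6.92 to 13.6 CPM in the Ccl21a-high libraries (median 9.95), against 38.1 to 49.3 in the Ptprc-high (median 43.2), 24.7 to 37.5 in the Msln-high (median 34.5) and 20.4 to 50.6 in the rest (median 28.9). All 7 Ccl21a-high libraries were below all 20 others. Irf9, the DNA-binding part of the type I complex, was at 28.8 to 38.0 CPM in the Ccl21a-high libraries (median 34.1), 39.1 to 59.4 in the rest (median 44.2), 54.6 to 63.5 in the Msln-high (median 59.7) and 57.3 to 85.2 in the Ptprc-high (median 77.2). The Ccl21a-high libraries lay lowest again, but with Gm26917 left out of the totals or with TMM scaling they overlapped the others for Irf9. Stat2, its partner, spanned only 32.4 to 86.2 CPM over all libraries, with the Msln-high libraries (63.7 to 86.2) above the rest (32.4 to 55.9).

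Usp18 encodes the protease that removes ISG15 and dampens the type I receptor. It was the 1 type I-type member with its highest median in the Ccl21a-high class. Usp18 (chr6:121245906-121270917) was at 35.4 to 71.3 CPM there (median 61.0), 4.14 to 11.6 in the Ptprc-high (median 7.504), 2.37 to 7.56 in the rest (median 3.65) and 2.92 to 5.66 CPM in the Msln-high libraries (median 4.37). The log2 ratio of class medians, Ccl21a-high over all others, was 3.22. The ubiquitin-like protein that USP18 acts on, Isg15, was at 0.946 to 3.07 CPM in the same libraries, below the Msln-high libraries (5.26 to 11.5 CPM).

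Among members that sense RNA or other nucleic acids, Dhx58 and Zbp1 were higher and Ifih1 lower in the Ptprc-high libraries than in all others. Of all genes, 12.4% were higher and 20.4% lower in this way. Ifih1 encodes MDA5, which detects long double-stranded RNA, and Dhx58 encodes LGP2, which modulates MDA5. Ifih1 (chr2:62595798-62646255) was at 2.55 to 15.5 CPM in the Ptprc-high libraries (median 7.34), below all others, with 20.01 to 38.1 in the Ccl21a-high (median 34.0), 17.0 to 39.5 in the rest (median 30.05) and 53.4 to 65.1 in the Msln-high libraries (median 61.7). Dhx58 (chr11:100694884-100704271) was at 13.1 to 20.5 CPM in the Ptprc-high libraries (median 18.3) and at most 7.37 CPM in any other. Zbp1, a sensor of Z-form nucleic acids, was at 29.7 to 57.0 CPM in the Ptprc-high libraries (median 34.5) and 3.74 to 24.1 CPM in the others. So in CPM the Ptprc-high libraries were lowest for 1 of these 3 and highest for the others, with no overlap. With Gm26917 left out of the totals, Ifih1 overlapped between the Ptprc-high libraries and the others. Ddx58, an RNA sensor outside the list, overlapped in CPM, at 40.3 to 55.1 in the Ptprc-high libraries and 31.1 to 105 in the others.

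The OAS family, whose enzymes make the messenger that activates RNase L, did not move as a block. Oas3 (chr5:120753098-120777661) was at 3.11 to 12.8 CPM in the Ptprc-high libraries (median 9.69), 1.44 to 2.11 in the Msln-high (2.11 in CD45 TG+ replicate 1, 1.44 in gp38-high TG- replicate 1, 1.84 in gp38-low TG- replicate 4 and 1.46 in lymph node FRC TG- replicate 2), and at most 0.549 CPM elsewhere, with 0 reads in 2 Ccl21a-high libraries. Oas2 was highest in the Msln-high libraries (10.5 to 25.5 CPM), which overlapped the Ptprc-high (2.61 to 14.6), and was at 0.0914 to 2.44 CPM in the Ccl21a-high libraries. Oas1a was at 3.61 to 16.1 CPM in the Ptprc-high and 6.99 to 10.4 in the Msln-high libraries, and at most 4.13 CPM elsewhere, but 57.6% of the 50-base stretches of its transcripts also occur in other genes, mostly Oas1g, so its values are uncertain.

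The OAS-like gene Oasl2 (chr5:114896936-114912234) set another class apart. In the Msln-high libraries it was at 281, 182, 300 and 280 CPM (in the library order given for Oas3), against 23.0 to 50.4 in the rest (median 35.8), 17.5 to 32.2 in the Ccl21a-high (median 22.8) and 4.25 to 23.0 CPM in the Ptprc-high libraries (median 11.9). The Msln-high libraries were far above all others, with a log2 ratio of medians of 3.55. Its neighbour Oasl1, a brake on Irf7 translation, was at 0.183 to 0.827 CPM in the Ccl21a-high libraries and 3.52 to 13.3 CPM in all others.

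The IFIT genes, whose proteins bind foreign RNA ends, lie together on chromosome 19 and had lower medians in the Ptprc-high and Ccl21a-high libraries than in the other classes. Ifit3 (chr19:34583531-34588731) was at 29.5, 15.7, 27.7 and 36.4 CPM in the Msln-high libraries, 7.12 to 12.6 in the rest (median 8.01), 1.85 to 5.91 in the Ptprc-high (median 3.69) and 2.07 to 4.18 in the Ccl21a-high libraries (median 2.38). Ifit3b followed the same order of the Msln-high libraries and the rest (4.83 to 10.6 and 0.558 to 2.31 CPM). Ifit3 and Ifit3b share 51.2% and 45.0% of their 50-base stretches with other genes, mostly each other, so their split is uncertain. Ifit1 was at 12.1 to 21.2 CPM in the Msln-high libraries and 0.487 to 12.9 in the others. Ifit2 overlapped wholly between the rest (17.1 to 39.5 CPM, median 33.4) and the Msln-high libraries (28.7 to 37.3, median 33.2), and was at 2.32 to 12.9 CPM in the Ptprc-high libraries.

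Other antiviral members repeated 1 of these patterns or had their own. Rsad2, which encodes viperin, was at 17.8, 5.31, 8.89 and 11.6 CPM in the Msln-high libraries and 0.206 to 0.562 CPM in the Ccl21a-high libraries, with the others between (0.761 to 4.46). Cmpk2, its neighbour on chromosome 12, was highest in the rest (17.4 to 43.4 CPM, median 26.4) and overlapped there with the Msln-high libraries (16.6 to 24.1). Ifi44 was at 6.99 to 11.3 CPM in the Msln-high libraries and at most 1.61 CPM elsewhere, with 0 reads in 5 libraries. Ifi27 lay in steps that did not overlap, from the Msln-high libraries (84.2 to 126 CPM) to the rest (59.3 to 82.1), the Ccl21a-high (33.1 to 49.1) and the Ptprc-high libraries (17.0 to 28.3), although with TMM scaling the rest overlapped both of its neighbours. Mx1 and Mx2, neighbours on chromosome 16 that encode dynamin-like GTPases, went opposite ways. Mx1 was highest in the Ptprc-high libraries (2.34 to 8.45 CPM) and at most 0.647 CPM in the rest, and Mx2 was highest in the Msln-high libraries (7.80 to 9.64) and lowest in the Ptprc-high (2.19 to 3.81). Xaf1 was at 18.0 to 21.6 CPM in the Msln-high libraries and 4.14 to 12.8 in the others, and Rtp4 at 11.1 to 17.3 and 1.55 to 15.3 CPM. Bst2, which encodes tetherin, and Ifi35 varied least between classes, at 14.3 to 38.3 and 14.4 to 37.1 CPM over all libraries.

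**Figure D3:**
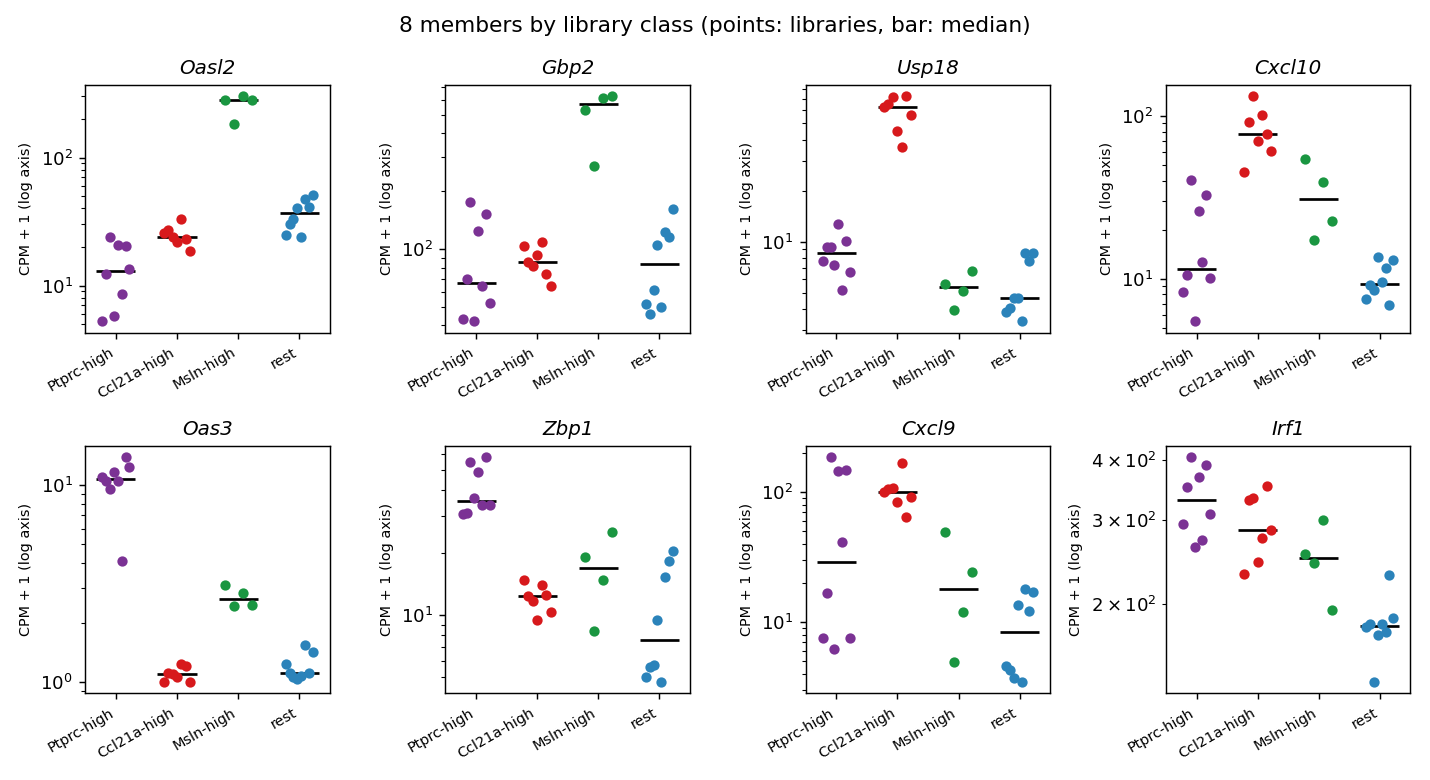
CPM + 1 (log axes) of 8 members in each library, by class, with a bar at the class median. Oasl2 and Gbp2 stand apart in the 4 Msln-high libraries, Usp18 in the 7 Ccl21a-high and Oas3 and Zbp1 in the 8 Ptprc-high libraries, while Irf1 spans 136 to 404 CPM over all.

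Guanylate-binding proteins (GBPs) and immunity-related GTPases (IRGs) attack the vacuoles of intracellular microbes and are typical interferon gamma targets. Gbp2 (chr3:142620602-142638008) was at 527, 270, 608 and 624 CPM in the Msln-high libraries, against 62.9 to 108 in the Ccl21a-high (median 84.6), 44.9 to 160 in the rest (median 82.0) and 40.9 to 174 CPM in the Ptprc-high libraries (median 65.6). The Msln-high libraries were above all others, and the other 3 classes overlapped. Gbp3, beside it, was also highest in the Msln-high libraries (35.5 to 75.7 CPM) but overlapped the Ptprc-high (8.16 to 50.1). Gbp5 differed from both: it was highest in the Ccl21a-high libraries (30.8 to 65.6 CPM, median 54.8), at 21.1 to 46.2 in the Msln-high, 10.1 to 52.7 in the Ptprc-high and only 2.174 to 9.64 in the rest, below all other libraries. Gbp7 was at 45.5 to 78.8 CPM in the Msln-high libraries and 4.27 to 53.1 in the others.

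Among the IRGs, Iigp1 had the widest spread between classes, with 42.0 to 146 CPM in the Ccl21a-high libraries (median 109), 35.0 to 83.6 in the Msln-high (median 68.0), 9.95 to 53.2 in the rest (median 19.6) and 1.20 to 17.4 CPM in the Ptprc-high libraries (median 3.53). Igtp and Irgm1 varied less, at 9.28 to 65.5 and 26.4 to 70.7 CPM over all libraries, and no class stood apart for either.

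Cxcl9 and Cxcl10, the chemokines that draw CXCR3-bearing T cells, were high in the Ccl21a-high libraries. Cxcl10 (chr5:92346638-92348889) was at 44.6 to 131 CPM there (median 76.7), 53.0, 16.2, 38.3 and 21.5 in the Msln-high, 4.46 to 39.7 in the Ptprc-high (median 10.5) and 5.92 to 12.6 CPM in the rest (median 8.33). Cxcl9 (chr5:92321347-92328079) was at 63.5 to 166 CPM in the Ccl21a-high libraries (median 99.8), 48.7, 3.97, 11 and 23.3 in the Msln-high and 2.45 to 16.9 in the rest (median 7.45). Ptprc-high libraries overlapped all classes for Cxcl9, from 5.22 to 187 CPM.

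**Figure D4:**
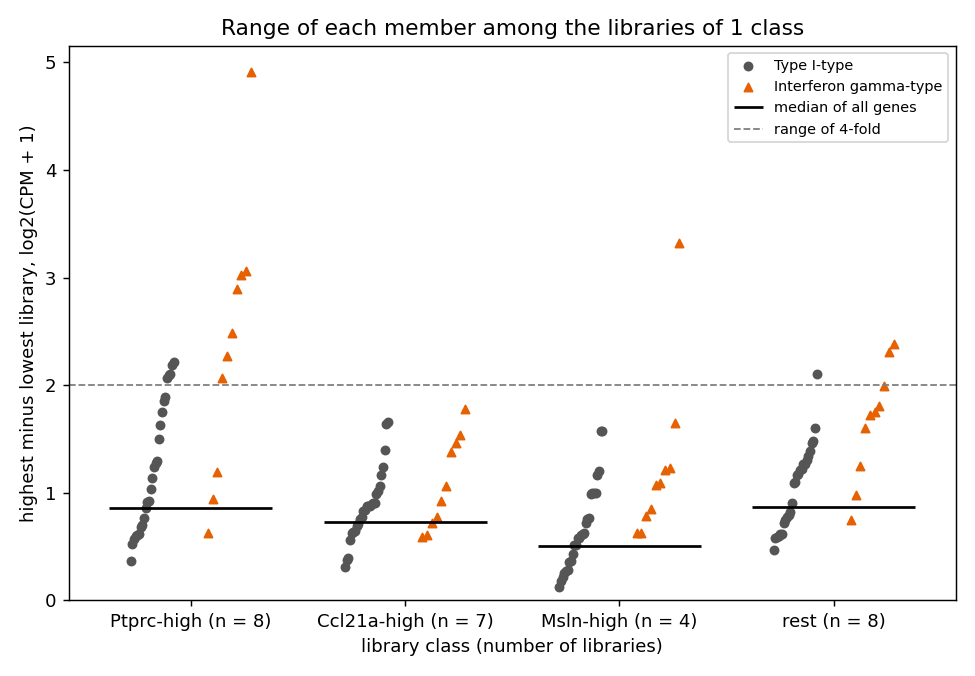
Highest minus lowest library of each class on the log2(CPM + 1) scale, for each type I-type (circles) and interferon gamma-type member (triangles), with a bar at the median of all genes and a dashed line at a 4-fold range. Of the 12 members above the line in the Ptprc-high class, 7 are interferon gamma-type.

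A range tends to widen with the number of libraries. The Ptprc-high class and the rest held 8, the Ccl21a-high class 7 and the Msln-high class 4. Among libraries of 1 class, the members differed most in the Ptprc-high class. There 12 members ranged over more than 4-fold on the log2(CPM + 1) scale, where 7.5% of all genes did. They were 7 of the 10 interferon gamma-type members (Cxcl9, Iigp1, Gbp7, Cxcl10, Gbp3, Gbp5 and Gbp2) and 5 of the 27 type I-type members (Ifih1, Oasl2, Oas2, Ifit1 and Ifit2). With a pseudocount of 5 CPM in place of 1, 4 members did. In the rest, Cxcl9, Iigp1 and Zbp1 did (8.41% of genes), in the Msln-high class Cxcl9 alone (3.64%) and in the Ccl21a-high class none (1.52%). The median range of interferon gamma-type members was 2.38 log2 units in the Ptprc-high class, 1.73 in the rest, 1.08 in the Msln-high and 0.99 in the Ccl21a-high class, against 0.86, 0.86, 0.51 and 0.73 for all genes.

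In the Ptprc-high class, Cxcl9 was at 187 CPM in the library labelled gp38-low TG- replicate 1, 144 in lymph node FRC TG+ replicate 3, 148 in lymph node FRC TG- replicate 3 and 40.5 in lymph node FRC TG+ replicate 4. In the other 4 it was at 6.52 (CD45 TG- replicate 4), 15.8 (gp38-high TG- replicate 2), 5.22 (lymph node FRC TG+ replicate 2) and 6.49 CPM (lymph node FRC TG- replicate 4). The first 3 libraries were also the highest for all the other 6 interferon gamma-type members named above. Ifng, the ligand, was at 6.70, 5.40, 7.85 and 4.83 CPM in the first 4 libraries and 0.85, 0.37, 0.87 and 0.81 CPM in the other 4. Ptprc itself was at 679, 627, 633 and 568 CPM against 261, 451, 228 and 169. The summed 5 NK and cytotoxic markers were at 112, 90.3, 124 and 71.0 CPM against 48.8, 43.7, 60.8 and 43.0, the 7 macrophage and monocyte markers at 5079, 6918, 4721 and 1881 against 1208, 4027, 1292 and 3750, and the 5 FRC markers at 88.0, 153, 103 and 23.0 against 2.1, 6.5, 2.2 and 5.3 CPM. In the FRC sum, Cxcl13 reached 149.6 CPM in this class, while Ccl21a, Ccl19, Pdpn and Il7 were at most 2.23, 0.70, 1.01 and 0.23 CPM. The 5 acinar markers summed to 226 to 437 CPM in the first 4 libraries against 886 to 2928 in the other 4, and the 4 endothelial markers to 61.0 to 93.0 against 123 to 158 CPM. In the endothelial sum, Pecam1 was at 51.2 to 150.3 CPM in this class, while Cdh5, Kdr and Tek were at most 5.83, 9.13 and 0.87 CPM. Mitochondrial genes took 0.340% to 0.373% against 0.0956% to 0.18% of the reads in genes, and 58.0% to 63.8% against 48.2% to 54.4% of reads were unmapped. The part of these differences in the range of the members was not tested.

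Whole libraries also stood high or low for the list as a block. In the Ptprc-high class, lymph node FRC TG- replicate 3 was above its class median for 36 of 37 members (61.9% of genes), lymph node FRC TG+ replicate 3 for 33 (56.3%) and gp38-low TG- replicate 1 for 32 (61.6%), while lymph node FRC TG+ replicate 2 was above for 3 (32.8%). In the Msln-high class, gp38-high TG- replicate 1 was above for 3 members although 61.3% of its genes were, and it had the highest sum of ductal markers, 3672 CPM against 1142 to 1880 in the other 3. In the rest, 4 libraries were above for 25 to 32 members and the other 4 for 5 to 8. The first are lymph node FRC TG- replicate 1, gp38-low TG+ replicate 4, gp38-high TG+ replicate 2 and gp38-low TG- replicate 2, with 32.7% to 53.0% of genes above. The others are CD45 TG+ replicates 2 and 4, gp38-high TG+ replicate 1 and gp38-low TG+ replicate 2, with 53.8% to 64.5% of genes above. The summed acinar markers were 76.9 to 294 CPM in the first 4 and 4331 to 8461 CPM in the other 4, and the part of these pancreatic transcripts in the members' levels was not tested. In the Ccl21a-high class, gp38-low TG+ replicate 1 was above for 32 members (53.4% of genes) and gp38-low TG- replicate 3 for 3 (27.2%). With TMM scaling, gp38-low TG- replicate 3 was above for 10 (42.0% of genes), lymph node FRC TG+ replicate 2 for 5 (39.1%) and gp38-high TG- replicate 1 for 0 (46.4%). The other libraries given here kept 25 or more, or 8 or fewer.

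The rest of the interferon pathway was followed by lists of its ligands, receptors, kinases, inhibitors, sensors and further targets. Of 21 ligand genes, 17 had no read in any library and Ifng alone reached a mean of 1 CPM. Ifnb1 had reads in 2 libraries, at up to 0.23 CPM. Ifng had 0 reads in all Ccl21a-high and Msln-high libraries and 0.12 to 0.36 CPM in the rest. These values are near the limit that a count of 0 allows in the rest, 0.119 to 0.335 CPM. All 6 receptor genes were measured. Ifnar1 was even, at 76.8 to 148 CPM over all libraries. Ifngr1, the ligand-binding chain for interferon gamma, was at 209 to 357 CPM in the Ccl21a-high libraries and 84.9 to 180 CPM in the others, and Ifnlr1, a receptor chain for type III interferons, was at 8.65 to 29.7 CPM in the Msln-high libraries and 0.67 to 14.7 in the others.

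Among inhibitors, Socs3, an inhibitor of cytokine receptors, was at 133 to 300.1 CPM in the Ptprc-high and 328 to 1293 CPM in the other libraries, while Socs1 overlapped in all classes (20.4 to 111 CPM). Ptpn6, which encodes SHP-1, a phosphatase of blood cells, was at 309 to 483 CPM in the Ptprc-high libraries and at most 12.2 CPM elsewhere. Among sensors, Tlr9 was at 58.9 to 126 CPM in the Ptprc-high libraries and at most 0.52 CPM elsewhere, and Tmem173, which encodes STING, was lowest in the rest (21.2 to 35.8 CPM).

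Of 31 further interferon-stimulated genes, 18 were above without overlap in the Msln-high libraries against the rest (19.9% of all genes) and none below (8.4%). Eif2ak2, the RNA-activated kinase PKR, was at 57.2 to 61.7 CPM in the Msln-high libraries and 1.31 to 30.1 in all others. In the Ccl21a-high libraries against the rest, 6 were above (Ifi47, Gbp8, Gbp9, Tgtp2, Nlrc5 and Tap1, against 9.77% of genes) and Trim25 below (16.2%). The Ptprc-high libraries were above all others for 6 (12.4% of genes), Adar, Sp100, Nlrc5, Psmb8, Psmb9 and Tap1, of which the last 4 serve MHC class I presentation. They were below all others for Phf11d and Isg20 (20.4% of genes).

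The design sets TG+ against TG- animals within each labelled population, to ask what CCL21 made by beta cells changes in the infiltrate and stroma. No gene was called by edgeR's quasi-likelihood test at a Benjamini-Hochberg adjusted p below 0.05, so 0% of genes and 0 members were called in each population. In the libraries labelled CD45, 34 members were among 14871 genes tested, 1402 genes had an unadjusted p under 0.05, and DESeq2 called 427 genes with 4 members, Ifit2, Rtp4, Cmpk2 and Irf1. Those labelled gp38-low had 34 members among 14095 genes, of which 273 had an unadjusted p under 0.05, and DESeq2 called 1. Those labelled gp38-high had all 37 members among 17937 genes, of which 920 had an unadjusted p under 0.05, and DESeq2 called 40 with no member. Those labelled lymph node FRC had 35 members among 13819 genes, of which 1057 had an unadjusted p under 0.05, and DESeq2 called 549 with no member.

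In the CD45 libraries, Cmpk2 differed by a log2 TG+ minus TG- of 1.84 ± 0.49 (SE, edgeR adjusted p = 0.506) and Rtp4 by 1.74 ± 0.51 (edgeR adjusted p = 0.506). Cmpk2 was at 20.3, 21.3, 5.44 and 23.8 CPM in TG+ replicates 1 to 4 and at 5.17, 3.77, 2.43 and 4.96 CPM in TG- replicates 1 to 4, without overlap. The TG+ library at 5.44 CPM is the Ccl21a-high one, and the others are Msln-high or of the rest, while the TG- libraries are Ccl21a-high or Ptprc-high. Cmpk2 thus moved with class, and the part of genotype in it cannot be told apart in this population. Irf1 and Mx1 had the smallest p among members lower in TG+, with log2 differences of -0.74 ± 0.28 (edgeR adjusted p = 0.506) and -1.25 ± 0.66 (edgeR adjusted p = 0.569). Without CD45 TG+ replicate 3, the Ccl21a-high one, edgeR called 520 genes with 3 members, Usp18, Rtp4 and Cmpk2. With all CD45 libraries, 14871 genes were tested. The TG+ and TG- libraries left without that replicate share no class, so genotype and class cannot be told apart in these calls.

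The other populations mix classes in the same way. In gp38-low libraries Gbp2 had a log2 difference of -1.35 ± 0.63 and Oas1a of -1.40 ± 0.69, while Iigp1 and Ifit2 had 0.68 ± 0.73 and 0.33 ± 0.47 (edgeR adjusted p = 0.999 for all 4). In gp38-high libraries the log2 differences were -6.73 ± 2.57 for Oas3 and -0.82 ± 0.40 for Irf9 (edgeR adjusted p = 0.663), with 1.15 ± 0.78 for Ifit2 (edgeR adjusted p = 0.665) and 1.26 ± 1.05 for Cmpk2 (edgeR adjusted p = 0.712). For Oas3, the TG- libraries were at 1.44 and 9.40 CPM, 1 Msln-high and 1 Ptprc-high, and the TG+ libraries, both of the rest, at 0.063 and 0.0397 CPM, under the limit that a count of 0 allows. In lymph node FRC libraries they were -2.86 ± 1.15 for Oasl2 and -1.39 ± 0.59 for Ifi27 (edgeR adjusted p = 0.645), with 1.01 ± 0.96 for Mx1 and 0.33 ± 0.41 for Zbp1 (edgeR adjusted p = 0.916). All 3 TG+ FRC libraries are Ptprc-high, and of the 4 TG- libraries 2 are.

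With library class as a covariate over all 27 libraries, the members' differences lay closer to 0. The edgeR test called 0 of 14238 genes (0%), although 1512 had p under 0.05 before adjustment, and DESeq2 also called 0. Oas3 and Ifi44 did not pass the filter on low counts. The other 35 members had log2 differences, TG+ minus TG-, of -0.34 (Gbp2) to 0.39 (Oas2). Of the type I-type members 8 were above 0 and 17 below, with a median of -0.08, and of the interferon gamma-type members 2 and 8, with a median of -0.09. Ifi35 had the smallest p, at -0.29 ± 0.11 (SE, edgeR adjusted p = 0.450), followed among lower members by Irf1 at -0.20 ± 0.10 (edgeR adjusted p = 0.450). Higher were Ifit2 at 0.27 ± 0.19 (edgeR adjusted p = 0.504) and Rsad2 at 0.32 ± 0.28 (edgeR adjusted p = 0.579). In data simulated for these libraries, with 200 genes changed 4-fold, 196 were recovered with 11 false calls. The simulation gave every gene the same dispersion (spread between libraries) of 0.1 and held no class differences. It therefore does not show what the test could find at the spread of the real libraries. Of the pathway genes outside the members, none was called in any of these fits.

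**Figure D5:**
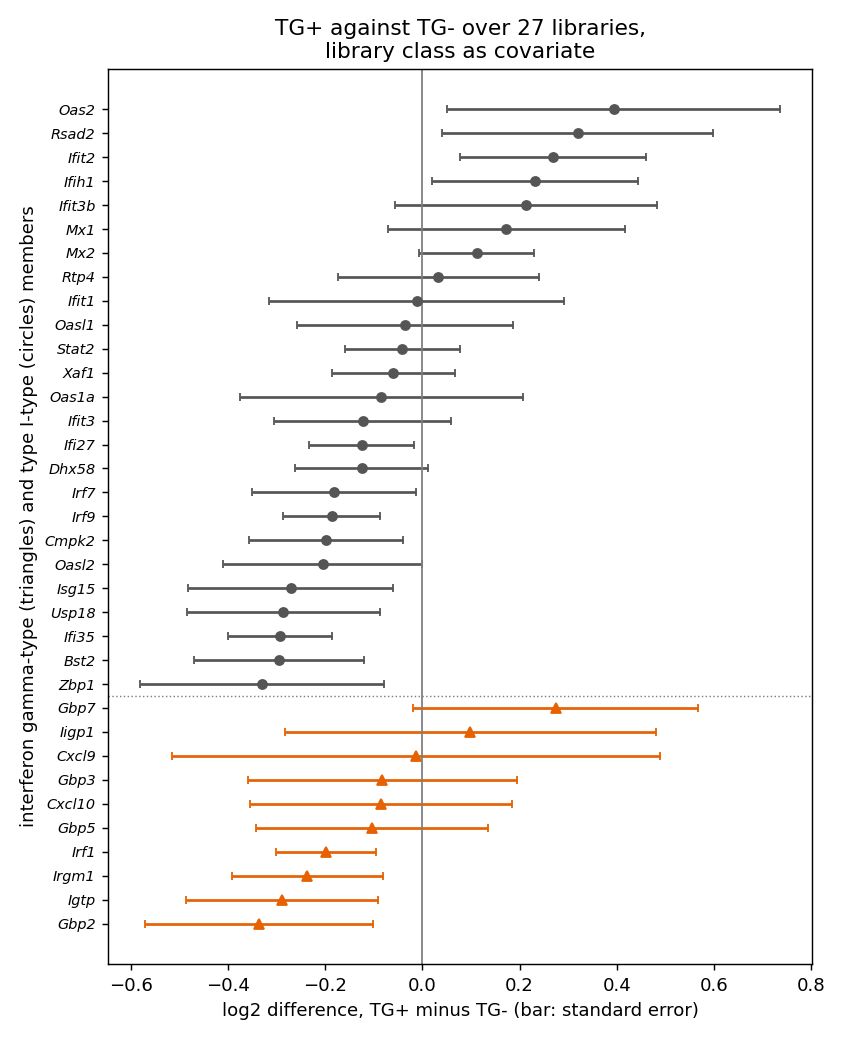
Log2 difference, TG+ minus TG-, with its standard error, of 35 members over 27 libraries with library class as a covariate (edgeR), type I-type members as circles and interferon gamma-type members as triangles. The estimates lie between -0.34 and 0.39, and none passed an adjusted p of 0.05.

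Islet stromal populations were also compared by label, with both genotypes weighted equally. Of 18396 genes edgeR called none (0%) for gp38-low against lymph node FRC, where 6639 had an unadjusted p under 0.05 and DESeq2 called 4777 with 5 members (Oas1a, Oas3, Irf9, Dhx58 and Zbp1), and none (0%) for gp38-high against gp38-low, where 509 had and DESeq2 called 147. In the first, Irf9 and Oas3 were lower in gp38-low, by log2 differences of -0.75 ± 0.22 and -3.26 ± 1.03 (edgeR adjusted p = 0.0943 for both), and Usp18 and Cxcl10 higher, by 1.69 ± 0.74 (edgeR adjusted p = 0.120) and 1.35 ± 0.60 (edgeR adjusted p = 0.124). The lymph node FRC label covers 5 Ptprc-high libraries and no Ccl21a-high library, and gp38-low 1 and 3, so the labels differ in class makeup as well. Without gp38-low TG- replicate 1, which is the Ptprc-high one, edgeR called 5403 genes with 5 members, the same as DESeq2, and without lymph node FRC TG- replicate 1 it called 1369 with 1 member, Irf9. In both, and with DESeq2, the share of members called was smaller than the share of all genes called. In the second, Cxcl10 and Usp18 had differences of -2.13 ± 0.76 and -2.59 ± 0.95, and Oasl1 and Ifit2 of 0.48 ± 0.67 and 0.30 ± 0.56 (edgeR adjusted p = 0.9999 for all 4).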

How the data were processed

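RNA of antibody-stained, sorted cells was made into rRNA-depleted libraries (KAPA RNA HyperPrep with RiboErase), per the labels' protocols. The authors deposited 1 table of gene counts per library, with unstranded, forward and reverse columns. The submitters' processing notes name bcl2fastq 2.17, Trim Galore 0.4.3, STAR 2.5.2a and mm10. The reverse column was used, since the forward column held 6.67% to 15.3% of the counts of both strands, and the 4 lines of reads in no gene were left out (unmapped reads were 19.4% to 67.7%). CPM is a gene's reads per 1000000 reads in genes, so depths of 8517844 to 25194443 reads set its precision. RPKM divides by union exon length in GENCODE. Members were matched by symbol to the gene identifiers. No 2 libraries agreed within sampling noise, with a chi-square per gene of at least 6.45.

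Members and lists were chosen with earlier results of these data known. Classes were compared by lowest, median and highest CPM, by whether libraries overlapped, and by log2 ratios of medians at a pseudocount of 1 CPM, with the 14965 genes of mean 1 CPM or more as background. Label comparisons used edgeR 4.0.16 (R 4.3.3, limma 3.58.1) with TMM, filterByExpr, robust quasi-likelihood tests and Benjamini-Hochberg adjustment at 0.05. The gp38-high genotypes were fitted with the gp38-low libraries, and the population comparisons with all gp38 and lymph node FRC libraries. Alternatives were DESeq2 1.42.0, other scaling, strands, filters, thresholds and pseudocounts, a replicate block, and each library left out. The test was checked on simulated data, where it recovered 189 of 200 genes changed 4-fold with 7 false calls for CD45. These data had a fixed dispersion of 0.1 and no class differences, so they do not measure power in the real, mixed groups. Named in each class are, per kind, the 4 members with the highest median RPKM, the 3 with the largest and 2 with the smallest difference between Ptprc-high and other medians, and the 3 with the largest range in each class. Named in each test are the 2 with the smallest p in each direction, and every other member is given by its range. One pathway gene is not reported here.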

Additional observations from a re-analysis of the deposited data

Results flagged for a closer look

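In 148 groups of 4 or more libraries, each a member in 1 class, 7 had a highest or lowest library far from the others by Dixon's 95% limit, where chance gives about 1 in 20. In the Msln-high class, gp38-high TG- replicate 1 was low for Oasl2 (182 CPM) and Gbp7 (45.5 CPM). In the Ccl21a-high class, gp38-low TG+ replicate 1 was high for Oas2 (2.44 CPM) and Rtp4 (5.04 CPM), and CD45 TG+ replicate 3 was low for Isg15 (0.946 CPM). In the Ptprc-high class, lymph node FRC TG+ replicate 4 was low for Oas3 (3.11 CPM). In the rest, lymph node FRC TG- replicate 1 was high for Ifit3 (12.6 CPM).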

How the results depend on the processing

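The counts of genes called, members not overlapping and members of wide range were taken again under alternatives other than leaving a library out. Of these counts, 114 stayed equal or close in size to the main count and 20 moved away from it. DESeq2 called 427 (CD45), 1 (gp38-low), 40 (gp38-high) and 549 genes (lymph node FRC) for genotype, 4777 for gp38-low against lymph node FRC and 147 for gp38-high against gp38-low, where edgeR called 0. The cause was not tested. With 1 library left out, edgeR called 0 to 520 genes for CD45 (the most without TG+ replicate 3) and 0 to 5403 for gp38-low against lymph node FRC. The log2 difference of Iigp1 in gp38-low then ranged from -0.033 (without gp38-low TG+ replicate 1) to 1.03, and that of Ifit2 between gp38-high and gp38-low from -0.47 (without gp38-high TG- replicate 1) to 0.66. Members above all others in the Ptprc-high class numbered 5 with TMM (15.8% of genes), 5 without Gm26917 (18.0%) and 0 at thresholds of double size (1.92%). Members below numbered 1 without Gm26917 (17.3%) and 0 at those thresholds (2.41%). At those thresholds the Ccl21a-high class was below the rest for 4 (6.15% of genes). The Ccl21a-high class was above the Msln-high class for 2 to 4 members with 1 library left out, the most without CD45 TG+ replicate 1, and above all others for 1 to 2. Msln-high libraries were above all others for 5 with TMM (5.51% of genes). The rest was below all others for 2 with unstranded counts (1.18% of genes), 0 at those thresholds (0.0468%) and 1 to 2 with 1 library left out. Ranges above 4-fold numbered 4 in the Ptprc-high class at a pseudocount of 5 CPM, 5 in the Ccl21a-high class at 0.1 CPM, and in the rest 5 with TMM, 10 at 0.1 CPM and 0 at 5 CPM. By construction a smaller pseudocount widens the ranges of low members. The replicate block left 0 genes called in each comparison. Same-numbered libraries of the 2 genotypes had correlated deviations of -0.13 to 0.64, not all above 0.1, and the numbers were not taken to pair them. The labelled groups mix classes, so these deviations also hold class differences and cannot show whether the numbers pair the libraries. Members at or below 0.352 CPM are at the limit of the shallowest library.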
